A study of Mus musculus with 8 samples.

Results

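The genes of glycolysis and glucose uptake were followed in single endocardium cells, 1 cell per array, from mouse hearts at E8.5 and the 9-somite stage. Members were the probes whose gene name in the deposited files was 1 of 35 names, from the hexose transporters through the enzymes of glycolysis to lactate export and the entry of pyruvate into mitochondria. Of these, 34 names were on the array, among 35715 gene names in all, and had 56 probes. *Pkm2*, an older name of *Pkm*, was not used as a name on the array. The 4 WT cells were Mesp1+/+ Sox17flox/flox, so that they carried floxed alleles of *Sox17*, an endodermal and endothelial transcription factor, but no Cre. The 4 KO cells were Mesp1Cre/+ Sox17flox/flox. Cre replaces 1 copy of *Mesp1* in that line and is active in early mesoderm, so that KO cells also differed from WT cells in *Mesp1* dosage, and *Sox17* was floxed in both.

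Glycolysis splits glucose into pyruvate with a small yield of ATP. Glucose enters through facilitative transporters (SLC2A, or GLUT), is trapped by hexokinase, is committed by phosphofructokinase and leaves the pathway as pyruvate, which is either reduced to lactate and exported by monocarboxylate transporters (SLC16A, or MCT) or oxidized by pyruvate dehydrogenase. Endothelial cells are known to draw most of their ATP from glycolysis, and embryonic tissues at early somite stages also depend on it heavily. Several of these genes are classical targets of hypoxia-inducible factors.

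Between 11370 and 18175 of 55295 usable probes were well above background in a cell, and this number, with that of the arrays, limits the precision. Values are log2 of scaled intensities, with a floor of 50 (5.64 on the log2 scale) under which values have no order. A difference is the mean of the KO cells minus the mean of the WT cells on that scale, given with the SD between cells pooled over genotypes. The labels do not say from which embryo a cell came, so that each genotype counted as 1 sample and no test was made. WT and KO arrays filled separate columns of 1 slide, and an effect of the column cannot be told apart from one of genotype. Both probes of *Sox17* were well above background in 0 of 8 cells, so that the arrays do not check the genotype. The study had assigned the cell type by PCR of marker genes. Between 6 and 10 of 10 endocardial or endothelial markers were well above background in each cell, with *Cdh5* and *Kdr* in all 8. Of these 10, 5 were higher and 5 lower in the mean of KO cells, and only *Emcn* was past 5-fold (4.07, SD 2.58). The 5 blood and 5 endoderm markers were at the floor in every cell. Cardiomyocyte markers were uneven, with 3 to 7 of 9 well above background and a summed scaled signal from 318 to 34056 in WT and from 1001 to 48719 in KO cells. Of the 9, 4 were higher and 3 lower in the mean of KO cells, with a median difference of 0. *Actc1*, cardiac actin, was the only one past 5-fold (2.67, SD 2.79), *Myh7*, a myosin heavy chain, differed by -1.40 (SD 2.58), and *Myh6* and *Tbx5* were at the floor in all 8 cells. KO cell 1 had the highest summed cardiomyocyte signal (48719). It also had the fewest endocardial or endothelial markers well above background (6) and their lowest summed signal (7045, against 10037 to 79403 in the other cells). The part of cardiomyocyte transcripts in the differences below was not tested.

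Part of the pathway was detected in every cell, and part was not. Of the 34 members, 14 were well above background in all 8 cells, and they covered most steps from hexokinase to lactate export: *Hk1*, *Gpi1*, *Aldoa*, *Tpi1*, *Gapdh*, *Pgk1*, *Pgam1*, *Eno1*, *Eno3*, *Pkm*, *Ldha*, *Slc16a1*, *Slc16a3* and *Pdhb*. At the other end, 7 members were well above background in a single cell. Members at the floor in all 8 cells numbered 6 and were isoenzymes known from other tissues or minor forms: *Hk3*, *Pfkfb4*, *Aldoc*, the muscle forms *Pgam2* and *Eno3*, and the liver and erythrocyte form *Pklr*. *Eno3* belongs to both groups, because its probe was above its local background but below the floor after scaling. Among the rest of the 14, *Pdhb* was at the floor in WT cell 1, and *Slc16a1* was dim in every cell (5.74 to 7.39). WT cells 1 to 4 had 14, 24, 20 and 28 members well above background, and KO cells 1 to 4 had 21, 22, 22 and 27. The genotypes overlapped in this number. WT cell 1 was lowest and was also lowest over all gene names (25.5% of names, against 28.8% to 39.9% in the other 7 cells). A total of 11 members were well above background in more KO than WT cells, 6 in more WT than KO cells and 17 in equally many. Among the 20270 gene names detected in at least 1 cell, 28.5% were in more KO and 27.4% in more WT cells.

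**Figure D1:**
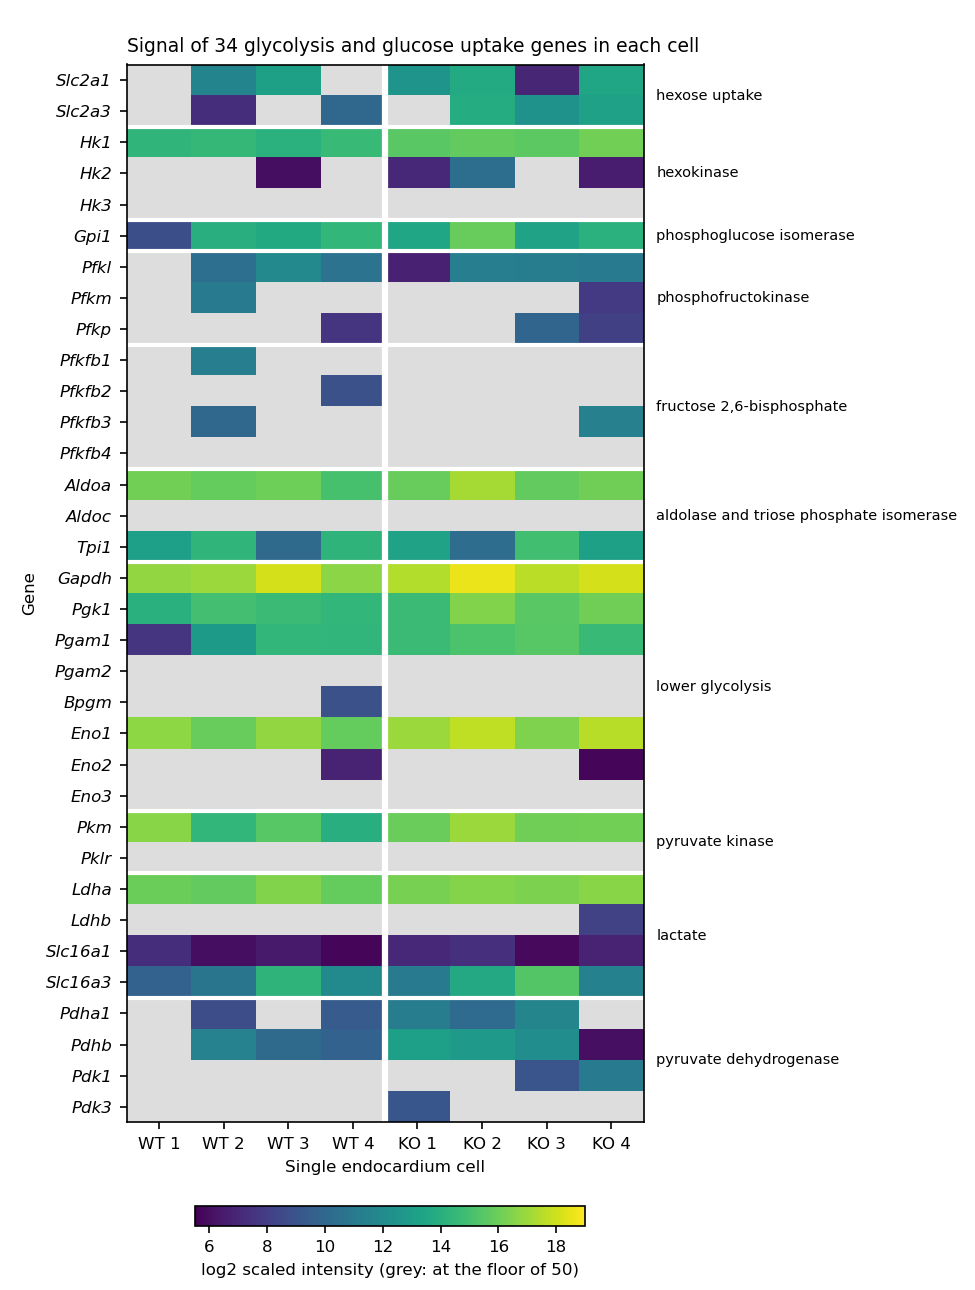
Log2 scaled intensity of the 34 members (rows, ordered by step of the pathway) in each of 4 WT and 4 KO cells (columns), with grey for values at the floor of 50. *Hk1*, *Aldoa*, *Gapdh*, *Pgk1*, *Eno1*, *Pkm* and *Ldha* were bright in all 8 cells, whereas *Slc2a1*, *Slc2a3*, the phosphofructokinases and the pyruvate dehydrogenase genes were bright in some cells and at the floor in others.

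Taking 1 probe per gene, the one with the highest mean intensity, 4 of 34 members were at least 5-fold higher in KO cells (*Slc2a1*, *Slc2a3*, *Pgam1* and *Pdha1*), where 3.23% of the 20270 gene names detected in at least 1 cell were. By the same measure 0 members were at least 5-fold lower, against 3.27% of gene names. The KO cells all lay above the WT cells for 2 members, *Hk1* and *Pgam1*, against 1.13% of gene names, and all below for 0, against 0.252%. Among the 14 members well above background in all 8 cells these are again 2 and 0. Of the 6236 gene names so detected, 3.06% and 0.273% lay apart. The first share rose with the mean level over the 8 cells up to 16 and was lower above it. It was 6.73% of 684 names at 12 to 14, where *Pgam1* lay, and 13.5% of 513 at 14 to 16, where *Hk1* lay. At 16 and over it was 7.74% of 336 names. The median difference over the 34 members was 0.54, with 22 members higher in the mean of KO cells, 6 lower and 6 equal at the floor. The median over the 20270 gene names was 0, with 39.8% higher in the mean of KO cells. Over the 6236 names detected in all 8 cells it was 0.12, with 59.3% higher. The counts of members are small and depended on single cells. Without WT cell 1 only *Slc2a3* stayed at least 5-fold higher.

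**Figure D2:**
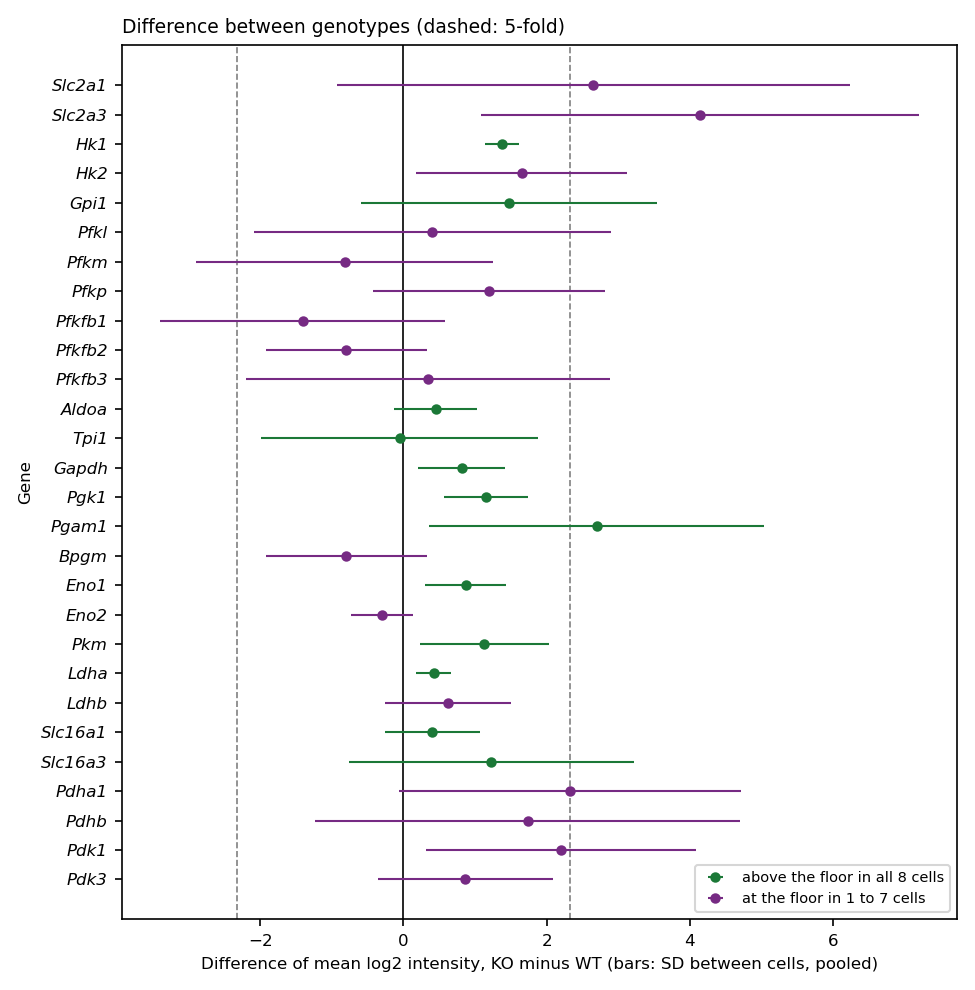
Difference of mean log2 intensity (KO minus WT) of the 28 members above the floor in at least 1 cell, with bars for the SD between cells pooled over genotypes, n = 4 cells each. *Slc2a1*, *Slc2a3*, *Pgam1* and *Pdha1* lay at or past the dashed 5-fold line, and the bars were shortest for *Hk1* (0.24) and *Ldha* (0.25).

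With the scaling used here, part of the preference for positive differences was shared by most bright genes. Among the 849 gene names detected in all 8 cells with a mean level of at least 14, the median difference was 0.63, and 86.5% were higher in KO cells. Their median level in WT cells 1 to 4 was 15.79, 15.01, 15.82 and 15.12, and that of KO cells 1 to 4 was 15.95, 16.46, 15.82 and 16.09. With this scaling WT cells 2 and 4 were thus low and KO cell 2 high for bright genes of any function. Which cells were low or high depended on the scaling. With the 50th percentile of all probes, WT cell 1 was lowest (14.70) and KO cell 3 highest (16.24), and KO cell 2 was at 15.51. With quantile normalization, which gives all cells the same distribution, the median of the same genes became 0.00. The 7 members in this range were *Hk1*, *Aldoa*, *Gapdh*, *Pgk1*, *Eno1*, *Pkm* and *Ldha*, with a median difference of 0.87, from 0.42 to 1.38, and all 7 were higher in KO cells. After quantile normalization their median was 0.30, from -0.23 (*Ldha*) to 0.74 (*Hk1*), and 5 of 7 were higher. Differences of these members are therefore also given relative to the median of genes of like level.

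**Figure D3:**
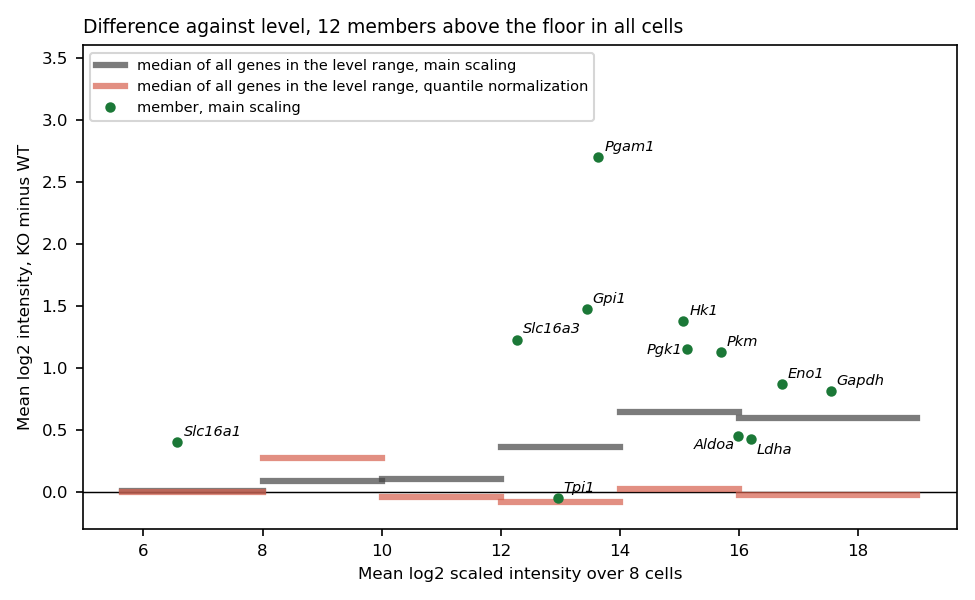
Difference of mean log2 intensity (KO minus WT) against the mean log2 intensity over 8 cells for the 12 members above the floor in all cells (points). Horizontal bars are medians of all gene names detected in all 8 cells within ranges of level, with the scaling used here (grey) and with quantile normalization (red), and the grey bars reach 0.64 and 0.60 above a level of 14, where *Aldoa* and *Ldha* lay under them.

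Transcripts of the 2 glucose transporters were uneven between cells and had the largest SDs among the members. *Slc2a1* encodes GLUT1, the transporter of most embryonic and endothelial cells (probe on chromosome 4 of mm9, 118809864 to 118809923). It was at the floor in WT cells 1 and 4, at 11.60 and 13.15 in WT cells 2 and 3, and at 12.48, 13.74, 6.97 and 13.46 in KO cells 1 to 4. It was thus above the floor in 2 of 4 WT and 4 of 4 KO cells, but the genotypes overlapped. The difference was 2.65 (SD 3.58), or 6.30-fold. It was 1.53 without WT cell 1 or without WT cell 4, 3.52 without WT cell 2, 4.03 without WT cell 3, 1.96 without KO cell 2, 4.22 without KO cell 3 and 2.05 without KO cell 4. It fell short of 5-fold with either scaling to all probes (2.29 with the floor set before scaling, 2.23 after) and with a floor of 200 (1.82). *Slc2a3* encodes GLUT3, a transporter of high affinity for glucose (chromosome 6, 122678075 to 122678134). It was at the floor in WT cells 1 and 3, at 7.27 and 9.999 in WT cells 2 and 4, at the floor in KO cell 1 and at 13.86, 12.38 and 13.24 in KO cells 2 to 4. KO cells 2 to 4 therefore exceeded every WT cell, and the KO cell at the floor was as low as the lowest WT cells. The difference was 4.14 (SD 3.06), or 17.7-fold. It ranged from 3.28 without KO cell 2 and 3.49 without KO cell 4 to 5.10 without WT cell 4 and 6.02 without KO cell 1, and it remained past 5-fold under every alternative run. KO cell 1, which lacked signal for *Slc2a3*, had *Slc2a1* at 12.48, and KO cell 3, in which *Slc2a1* was low, had *Slc2a3* at 12.38. In WT cell 1 both transporters were at the floor.

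Hexokinase phosphorylates glucose and so keeps it in the cell, and *Hk1* is its widely expressed form. Among the 34 members it had the largest difference relative to its SD, and its probes went against each other. The array has 3 probes for it. Stretches of 30 bases of each are shown 5′ to 3′ as the files give them, because the direction of the result depends on which is read, with the polyadenylation signal AATAAA in capitals where the probe holds it:
Hk1 probe of highest signal: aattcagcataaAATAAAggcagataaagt
Hk1 second probe: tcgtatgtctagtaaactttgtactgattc
Hk1 probe of lowest signal: ttcctcctgtctgaagacggcagcggcaag

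The first of these is annotated to chromosome 5 of mm9 (22118404 to 22118463, minus strand) although *Hk1* lies on chromosome 10 in RefSeq. It was at 14.32, 14.48, 14.11 and 14.62 in WT cells 1 to 4 and at 15.57, 15.75, 15.59 and 16.13 in KO cells 1 to 4. Every KO cell lay above every WT cell. The difference was 1.38 (SD 0.24), or 2.60-fold, and 0.74 relative to genes of like level. Leaving out any cell gave 1.25 to 1.46. The genotypes stayed apart in 5 of the 8 settings of scaling and floor, but not with quantile normalization (0.74) or with either scaling to all probes.

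The second *Hk1* probe lies on chromosome 10 (61731856 to 61731915, minus strand) and is among the probes that the study listed as decreased, a list chosen on these same cells. It was at 14.10, 11.11, 12.46 and 9.27 in WT cells 1 to 4 and at the floor in all 4 KO cells, 2 of which were still well above background. Here every KO cell lay below every WT cell, by a difference of -6.09 (SD 1.45), and by -5.30 without WT cell 1 and -6.91 without WT cell 4. As all KO cells were at the floor, the size depends on it and was -7.73 with a floor of 10 and -4.09 with a floor of 200. A further probe, 861 bases away on the same chromosome (61732717 to 61732776, minus strand), passed the background call in all 8 cells but was at or near the floor in each (at most 5.67), with a difference of -0.01. Thus the same cells gave higher, lower and equal signal in KO for probes carrying 1 gene name. The mean of the 3 probes was lower in KO cells, with a difference of -1.57.

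**Figure D4:**
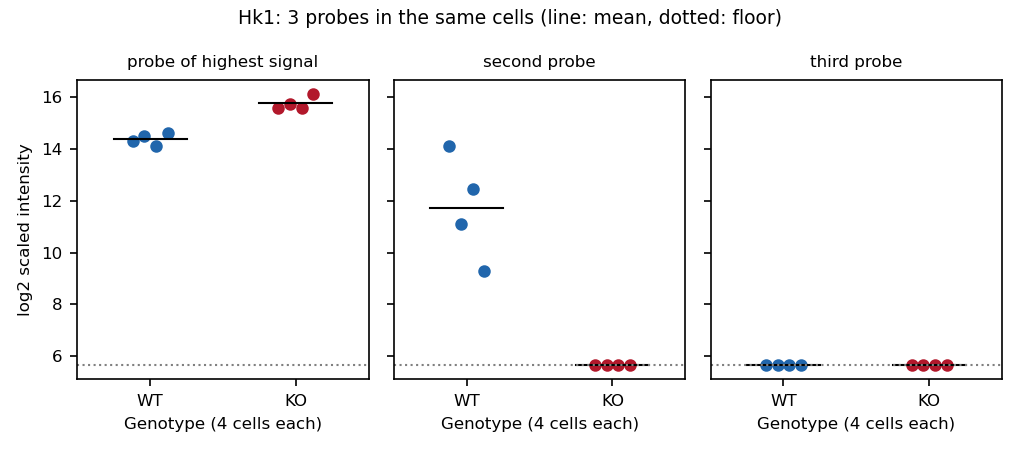
Log2 scaled intensity of the 3 *Hk1* probes in 4 WT (blue) and 4 KO (red) cells, with a line at each mean and a dotted line at the floor. The probe of highest signal was higher in all KO cells, the second was at the floor in all KO cells and above 9 in all WT cells, and the third was at the floor in both.

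Of the other hexokinases, *Hk2*, the inducible form, was well above background in 2 WT and 3 KO cells, reached 10.38 in KO cell 2 and otherwise lay at or under 6.99. Its difference was 1.65 (SD 1.47). *Hk3* was at the floor throughout.

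*Gpi1*, the isomerase of the next step, was detected in all 8 cells by each of its 3 probes. These probes overlap each other by 55 to 59 bases with 1 to 3 mismatches, so that they read nearly the same stretch of the transcript and are not independent. They are shown because they read almost the same letters and still gave differences of unequal size (the differing positions in this window are in capitals):
Gpi1 probe of highest signal: tgttCtgacctGtatttcacaccccagcta
Gpi1 second probe: tgttTtgacctGtatttcacaccccagcta
Gpi1 probe of lowest signal: tgttCtgacctTtatttcacaccccagcta

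The first and the second are annotated to chromosome 7 of mm9 (34987178 to 34987237 and 34987173 to 34987232) and the third to chromosome 8 (5641211 to 5641270), whereas the gene lies on chromosome 7. The differences were 1.47 (SD 2.06), 0.69 (SD 1.09) and 0.72 (SD 1.10). They parted mainly in WT cell 1, at 8.74 with the first probe and at 11.61 and 11.44 with the others, and without that cell the first probe differed by 0.15. The highest cell was KO cell 2 (15.86) with each probe, and the genotypes overlapped.

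Of the phosphofructokinases, which commit sugar to glycolysis, *Pfkl* was above the floor in 7 of 8 cells, and *Pfkm* and *Pfkp* were seen in few cells, each time beside it. *Pfkl*, the liver form, was above the floor in 3 WT cells (10.43 to 11.88) and in all KO cells (11.27, 11.22 and 10.99 in KO cells 2 to 4, 6.71 in KO cell 1). Its difference of 0.41 (SD 2.50) was far inside the spread and turned to -0.93 without WT cell 1, and to a negative value in 2 of the 7 other settings of scaling and floor. *Pfkm*, the muscle form, was above the floor only in WT cell 2 (11.09) and KO cell 4 (7.82). *Pfkp*, the platelet form, was above it only in WT cell 4 (7.56), KO cell 3 (9.92) and KO cell 4 (8.08). Their differences were -0.82 (SD 2.07) and 1.20 (SD 1.62), and that of *Pfkm* was 0.54 without WT cell 2. WT cell 1 had no phosphofructokinase gene above the floor.

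The bifunctional enzymes that set the level of fructose 2,6-bisphosphate, the main activator of phosphofructokinase, were rare in these cells. *Pfkfb1* was above the floor only in WT cell 2 (11.26), *Pfkfb2* only in WT cell 4 (8.83) and *Pfkfb3*, the form best known from endothelium, only in WT cell 2 (9.997) and KO cell 4 (11.36). *Pfkfb4* was at the floor in all 8 cells. *Pfkfb1* and *Pfkfb2* were not well above background in any KO cell. Their differences were -1.41 and -0.80, or 2.65-fold and 1.74-fold higher in the WT mean, and rest on 1 cell in each case. With a floor of 200 they were -0.91 and -0.30, so that the size depends on the floor. *Pfkfb3* differed by 0.34 (SD 2.54), and by -1.09 without KO cell 4.

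The next 2 steps split fructose bisphosphate into triose phosphates. *Aldoa*, the main aldolase outside liver, was steady from cell to cell, at 15.09 to 16.14 in WT and 15.76 to 17.19 in KO cells. Its difference of 0.45 (SD 0.57) was -0.19 relative to genes of like level and -0.21 after quantile normalization. *Tpi1*, triose phosphate isomerase, was less even, with WT cell 3 at 10.17, KO cell 2 at 10.35 and the other cells between 13.14 and 14.93. Its difference was -0.05 (SD 1.93), and -0.87 (SD 2.15) with the second probe. That probe was low in the same 2 cells (7.91 and 8.14) but lowest in KO cell 4 (6.77), which was at 13.18 with the first. Without WT cell 3 the first probe gave -0.99 and without KO cell 2 it gave 0.81. In KO cell 2 *Tpi1* was low although that cell was the highest of all for 7 of the 12 members above the floor in every cell.

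*Gapdh*, which oxidizes glyceraldehyde 3-phosphate, also served as the reference gene of the study's real-time PCR. It was at 16.82, 16.99, 18.11 and 16.65 in WT cells 1 to 4 and at 17.45, 18.63, 17.59 and 18.15 in KO cells 1 to 4. WT cell 3 lay within the range of the KO cells and the other WT cells below it. The difference was 0.81 (SD 0.60), or 1.76-fold, and 0.22 relative to genes of like level. It was 0.59 without KO cell 2 and 1.13 without WT cell 3, and 0.30 after quantile normalization. *Gapdh* is known for its many processed copies across the mouse genome, and all 9 of its probes are annotated to 7 chromosomes other than chromosome 6, where the gene lies. Windows from the 3 probes of highest signal show how alike these copies are, again with the polyadenylation signal in capitals:
Gapdh probe on chromosome 7: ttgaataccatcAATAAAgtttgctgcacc
Gapdh probe on chromosome X: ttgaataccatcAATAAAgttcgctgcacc
Gapdh probe on chromosome 8: ttgaataccatcAATAAAgtttgctgcact

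These probes span 59003199 to 59003257, 12902948 to 12903007 and 47339831 to 47339890 of mm9. Transcripts of the gene and of a near-identical copy cannot be told apart with them, so that the *Gapdh* values are uncertain in that respect. All 9 probes were well above background in all 8 cells and their differences lay between 0.81 and 1.20 (SD 0.51 to 0.64). The KO cells all lay above the WT cells for 1 of the 9, a probe on chromosome 17 (25464399 to 25464458), at 10.12 to 11.43 in WT and 11.55 to 12.69 in KO cells. Over all members, 13 of 52 probes with a position (25%) were annotated to another chromosome than their gene, 9 of them for *Gapdh*, where 3.16% of 29087 probes with a RefSeq gene were. The probes used for *Hk1*, *Gapdh*, *Eno1* and *Pkm* were among them.

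Of the remaining enzymes of lower glycolysis, *Pgk1*, which makes the first ATP of the pathway, was at 14.09 to 14.95 in WT and 14.73 to 16.42 in KO cells. KO cell 1 lay inside the WT range and the other 3 KO cells above it. The difference was 1.15 (SD 0.59), or 0.51 relative to genes of like level. *Pgam1*, the phosphoglycerate mutase of most tissues (chromosome 19, 41992898 to 41992957), was at 7.51, 12.84, 14.46 and 14.37 in WT cells 1 to 4 and at 14.70, 15.20, 15.48 and 14.58 in KO cells 1 to 4. Every KO cell lay above every WT cell, but the lowest KO cell exceeded the highest WT cell by little. WT cell 1 was far below the rest. The difference was 2.70 (SD 2.34), or 6.49-fold, and 2.33 relative to genes of like level. Without WT cell 1 it was 1.10, or 2.15-fold, and it was 3.42 without WT cell 3 and 3.39 without WT cell 4. The genotypes stayed apart in 4 of the 8 settings of scaling and floor. The difference fell short of 5-fold with quantile normalization (1.54) and, narrowly, with the 75th percentile (2.31).

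*Eno1*, the main enolase, was at 15.79 to 16.83 in WT and 16.40 to 17.69 in KO cells, a difference of 0.87 (SD 0.57), and 0.27 relative to genes of like level. The neuronal form *Eno2* was above the floor only in WT cell 4 (6.86) and, barely, in KO cell 4 (5.69). *Bpgm*, the mutase known from erythroid cells, was above the floor only in WT cell 4 (8.83). Its difference was -0.80, or 1.74-fold higher in the WT mean, and -0.30 with a floor of 200. *Pkm*, the pyruvate kinase of embryonic tissue, was at 16.61, 14.43, 15.50 and 13.98 in WT cells 1 to 4 and at 15.90 to 16.96 in KO cells. WT cell 1, dim for so many members, was the second highest of all cells here. The difference of 1.13 (SD 0.90) was 0.49 relative to genes of like level, and without WT cell 1 it was 1.62 and the KO cells all lay above the WT cells. A second probe of *Pkm* gave 0.99 (SD 0.98).

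For lactate, *Ldha*, the dehydrogenase subunit that favours lactate formation, was even across cells, at 15.98, 15.73, 16.44 and 15.83 in WT and 16.25, 16.52, 16.34 and 16.58 in KO cells. Its difference of 0.42 (SD 0.25) was -0.17 relative to genes of like level and -0.23 after quantile normalization. The probe lies on the plus strand of chromosome 7 in mm9 (54110937 to 54110996). The other 2 probes lie 3643 bases before it and a further 4284 bases before that. They gave 0.50 (SD 1.11) and 2.83 (SD 1.59), the last with 3 WT cells and 1 KO cell at the floor. *Ldhb*, the heart subunit, was above the floor only in KO cell 4 (8.13). Its difference was 0.62, or 1.54-fold higher in the KO mean, and 0.12 with a floor of 200. *Slc16a1*, or MCT1, was dim in all cells, at 5.74 to 7.25 in WT and 5.84 to 7.39 in KO cells. *Slc16a3*, or MCT4, the exporter of glycolytic cells, ranged from 9.73 to 14.30 in WT and from 11.12 to 15.41 in KO cells. Their differences were 0.40 (SD 0.66) and 1.23 (SD 1.99), and both pairs of genotypes overlapped.

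At the mitochondrial entry of pyruvate, *Pdha1*, the catalytic subunit of pyruvate dehydrogenase (chromosome X, 156560665 to 156560724), was at the floor in WT cells 1 and 3, at 8.67 and 9.38 in WT cells 2 and 4, at 11.16, 10.23 and 11.62 in KO cells 1 to 3 and at the floor in KO cell 4. KO cells 1 to 3 exceeded every WT cell and the remaining one was as low as any. The difference was 2.33 (SD 2.39), or 5.03-fold, just past the 5-fold line. It was 3.01 without WT cell 4, 1.68 without KO cell 3 and 3.67 without KO cell 4. In 5 of the 7 other settings of scaling and floor it fell short of 5-fold, at 1.71 to 1.98, and it was 2.54 with quantile normalization and 2.76 with a floor of 10. *Pdhb*, the partner subunit, was also low in WT cell 1 (at the floor) and in KO cell 4 (6.03), but not in WT cell 3 (10.19), with the WT cells other than WT cell 1 at 9.75 to 11.50 and the other KO cells at 12.11 to 13.10. Its difference was 1.74 (SD 2.97) and 0.53 without WT cell 1. Without KO cell 4 it was 3.40, and both subunits were at least 5-fold higher in KO cells with genotypes apart. The other 2 probes of *Pdhb* gave 1.73 and -1.48, the latter above the floor only in WT cell 3. The kinases that inhibit the complex were sparse. *Pdk1* was at the floor in all WT cells and reached 9.08 and 11.02 in KO cells 3 and 4 (difference 2.203, SD 1.88). That value was 1.15 without KO cell 4 and 2.94 without KO cell 1, and 1.20 with a floor of 200, but past 5-fold with a floor of 10 (3.36), with normexp background correction (2.36) and with the floor set before scaling (2.35). *Pdk3* was above the floor only in KO cell 1 (9.11). Its difference was 0.87, or 1.82-fold higher in the KO mean, and 0.37 with a floor of 200.

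Of 77 other genes around the pathway, in 7 lists, 76 were on the array. At least 5-fold differences numbered 3 higher and 5 lower in KO cells, against 3.23% and 3.27% of the detected gene names. Unlike those names, the 76 include genes detected in no cell, here and in the counts and median that follow. Only 4 of the 11 other transporters and 5 of the 9 other isoenzymes were detected, against all 13 genes of the citric acid cycle. The KO cells lay all above the WT cells for 2 and all below for 0, against 1.13% and 0.252%, and the median difference was 0. The 2 were *Slc16a7* and *Gys1*. *Slc16a7*, or MCT2, a pyruvate and lactate transporter (chromosome 10, 124825595 to 124825654), was at 6.20, 8.12, 5.64 and 5.96 in WT and at 10.43, 12.28, 8.35 and 8.57 in KO cells. All KO cells were above all WT cells, with a difference of 3.43 (SD 1.52), or 10.7-fold. Over the 8 settings of scaling and floor the difference was 2.14 to 3.53, at its lowest short of 5-fold. The genotypes stayed apart in 5 of these settings. *Slc16a7* too is on a list of the study chosen on these cells, and its 5 probes ranged from 0 to 3.43. *Gys1*, muscle glycogen synthase, lay at 5.84 in WT cell 1, with the other WT cells at the floor, and at 12.28, 5.92, 14.24 and 6.13 in KO cells. Only KO cells 1 and 3 were bright, so that the difference of 3.95 (SD 3.01) rests on these 2, and the genotypes stayed apart in 2 of those 8 settings. *Dld*, a subunit of pyruvate dehydrogenase, was the remaining gene at least 5-fold higher (3.18, SD 2.13), with overlap, and came down to 2.18 among the 8 settings.

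The 5 genes at least 5-fold lower all overlapped between genotypes and are named after their values were seen. *Tigar*, which lowers fructose 2,6-bisphosphate, was at 14.76, 12.49, 12.31 and 5.64 in WT cells 1 to 4 and at the floor in all KO cells. WT cells 1 to 3 were bright and WT cell 4 was as dim as the KO cells, with a difference of -5.66 (SD 2.78). As all KO cells were at the floor, the size depends on it, from -7.23 to -4.16 over the 8 settings, and it was -7.54 to -4.51 without a cell. The others were *Gyg*, glycogenin (-3.54, SD 2.27), *Myc*, a transcription factor that activates glycolytic genes (-2.52, SD 2.05), and *Idh3a* and *Idh3b*, subunits of isocitrate dehydrogenase (-3.10, SD 2.58, and -2.76, SD 2.47). *Tigar* and *Gyg* stayed past 5-fold in the 8 settings and without any 1 cell, whereas *Myc*, *Idh3a* and *Idh3b* came down to -1.41, -2.10 and -1.76. Of the 13 genes of the citric acid cycle, 10 were lower and 3 higher in the mean of KO cells, with a median difference of -0.96. This list was singled out after its values were seen. Of the 20270 detected gene names, 39.8% were higher in KO cells. Each of the other lists around the pathway had a median of 0. All of them held genes at the floor in all 8 cells, whereas the citric acid cycle held none. The median of the cycle genes ranged from -1.35 to 0.14 when 1 cell was left out. It was positive only without KO cell 4, where 6 of 13 were lower. Of the 14 regulators, *Epas1*, or HIF-2α, was detected in all 8 cells and differed by -0.01 (SD 0.78), but its 3 probes ranged from -1.61 to 0. *Hif1a* was above the floor in WT cell 2 (6.53), KO cell 2 (10.53) and KO cell 4 (6.17). The 8 genes of the pentose phosphate pathway held none past 5-fold. Among genes often used as references, *Actb* differed by 1.10 (SD 1.57), *Ppia* by 0.74 (SD 0.43), *B2m* by 0.09 (SD 2.95) and *Hprt* by 2.40 (SD 2.28).

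Promoters were searched for 2 short strings of letters, as a description only. Several members are classical targets of hypoxia-inducible factors, so that the first string is not independent of the choice of members. The genes set beside them were not matched to the members. Of the members, 33 had an entry among RefSeq promoters on GRCm38.p6, each covering 250 bases before and 50 after a start site. The letters ACGTG on either strand, the core bound by hypoxia-inducible factors and by other factors, occurred in the 250 upstream bases of 15 of the 33 (45.5%) and of 18.5% of 27025 genes. AACAAT on either strand, a core of SOX binding sites, occurred in 2 of the 33 (6.06%) and in 10.9% of genes. Windows of 30 bases around the match nearest the start site follow for 2 members past 5-fold and 2 that were bright in every cell, with the match in capitals and CACGT where it lies on the other strand:
Slc2a1, chr4:119108697-119108726, plus strand: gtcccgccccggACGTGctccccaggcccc
Pgam1, chr19:41911745-41911774, plus strand: cgctccttgcttACGTGcgctccgtgactg
Ldha, chr7:46845758-46845787, plus strand: cgtgggttcccgCACGTccgctgggctccc
Pgk1, chrX:106186957-106186986, plus strand: aaatggaagtagCACGTctcactagtctcg

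The matches begin 36, 114, 34 and 131 bases before the start sites of *Slc2a1*, *Pgam1*, *Ldha* and *Pgk1*. Genes with the letters were on both sides of the 5-fold line, as *Slc2a1* and *Pgam1* were past it and *Hk3* was at the floor in all cells. *Slc2a3* and *Pdha1*, the other members past 5-fold, were not among the 15 members with the letters. A match is a string of letters and no measured binding.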

How the data were processed

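RNA of single cells had been amplified as cDNA from its 3′ end, transcribed and hybridized to 8 1-colour Agilent arrays. The authors deposited the scanner output (Feature Extraction 12.0.2.2, design 028005, mm9), whose intensity values were background-subtracted and detrended within each array but not normalized between arrays. The other deposited flags mark outlier spots, saturation and signal over background.

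Control and outlier spots were dropped and spots of a probe averaged, which left 55295 of 55681 probes, 0 of them saturated. A probe was well above background when over 50% of its spots were. Over the 7570 probes that passed this on all 8 arrays, the 50th percentile was made equal between arrays, a floor of 50 was set, and log2 values of these scaled deposited intensities were used. A gene was given by its probe of highest mean intensity, and all probes of *Hk1* and of members past 5-fold or apart are given. From other lists, genes both at least 5-fold different and apart were named by rule, and the other genes of these lists were named after their values were seen. Members and lists were chosen with earlier results of these data known. Genotype was 1 sample of 4 cells, with no test. A group dim in all cells was set at the higher of its own value, its lowest well-above-background signal and the floor. This came to the floor for each such member. Cells at the floor in the other genotype have no such limit, so that the folds of these members are not bounds. Alternatives were the 75th percentile, all probes for the percentile, the floor set before scaling, quantile normalization, normexp (offset 50, no floor), floors of 10 and 200, other choices of probe, another detection flag and leaving out each cell. Centring on genes of like level was added after seeing the data. Steps were tested on simulated data with less noise than most members had between cells and with the shifted probes above the floor. How the steps handle values at the floor was thus not tested. RefSeq (GRCm38.p6) gave chromosomes and promoters. Python 3.11.15 (numpy 2.4.6, pandas 2.3.3, matplotlib 3.10.9) and R 4.3.3 with limma 3.58.1 were used.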

Additional observations from a re-analysis of the deposited data

Results flagged for a closer look

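Within a genotype of 4 cells, 1 cell stood apart when the gap to its nearest neighbour took up more of the whole range than Dixon's critical value for 4 values allows. Of 53 groups with any spread, 17 met this, where chance gives about 1 in 20. In 13 of the 17 the other 3 cells were at the floor, which makes the share 1 whatever the size of the gap. These were *Hk2* (WT cell 3), *Pfkm* (WT cell 2 and KO cell 4), *Pfkp* (WT cell 4), *Pfkfb1* (WT cell 2), *Pfkfb2* (WT cell 4), *Pfkfb3* (WT cell 2 and KO cell 4), *Bpgm* (WT cell 4), *Eno2* (WT cell 4 and KO cell 4), *Ldhb* (KO cell 4) and *Pdk3* (KO cell 1). In the other 4 groups, *Gpi1* was low in WT cell 1 (0.864), *Pfkl* was low in KO cell 1 (0.939), *Pdhb* was low in KO cell 4 (0.861), and the number of members well above background was high in KO cell 4 (27, share 0.833).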

How the results depend on the processing

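Members at least 5-fold higher in KO cells numbered 4, and 2 with the 75th percentile, with the 50th percentile of all probes and with a floor of 200, 3 with the floor set before scaling and with quantile normalization, 6 with a floor of 10 (*Hk2* and *Pdk1* added), and 1 to 5 when a cell was left out (1 without WT cell 1, *Slc2a3*). Members with all KO cells above all WT cells numbered 2, and 1 with the 75th percentile, with the mean of all probes and after centring on genes of like level, 0 with the floor set before scaling, with the 50th percentile of all probes and with quantile normalization, and 2 to 4 without a cell (4 without WT cell 3 and without KO cells 1, 3 or 4). Members with all KO cells below numbered 0, and 1 (*Hk1*) with the mean of all probes, where *Hk1* turned from 1.38 to -1.57. Members at least 5-fold lower numbered 0 in every setting. The median over members, 0.54, ranged from 0.44 to 0.82 without a cell. *Hk1*, *Aldoa*, *Pgk1*, *Eno1* and *Ldha* moved down by more than their SD between cells with quantile normalization and after centring. With 4 cells a genotype, leaving out 1 cannot move a difference by its pooled SD, so that no such count is given for it, but *Pfkl*, *Pfkm*, *Pfkfb3*, *Tpi1* and *Eno2* changed sign without some cell. *Aldoa* and *Ldha* were lower in KO cells only with quantile normalization (-0.21 and -0.23) and after centring (-0.19 and -0.17). With the more lenient detection flag WT cell 1 had 23 members in place of 14. No paired analysis was possible because no test was made and replicate numbers do not name embryos.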
